A study of Homo sapiens with 9 samples.

Results

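The nuclear-encoded subunits of oxidative phosphorylation were followed in THP-1, a monocytic line from a human leukaemia whose cells become adherent and macrophage-like when stimulated with PMA, a phorbol ester. The subunits were taken by gene symbol from a list of respiratory chain and ATP synthase genes, and 79 of the 16222 genes in the deposited count table met it. They fell into complex I with 37 genes, complex II with 4, complex III with 9, complex IV with 11 and complex V with 18. NDUFA4, named for complex I and found with complex IV, was counted with complex IV. The list named genes by symbol and used no measured value, but it was chosen with earlier results of these data known.

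All 9 libraries came from wild-type THP-1 cells stimulated with PMA, 3 libraries in each group. The control group was then given PBS, a salt buffer, the LPS group bacterial lipopolysaccharide, and the LPS_ABS group lipopolysaccharide together with ABS. What ABS stands for is not written in the labels, although apoptotic bodies appear in the title of the series. Neither a dose nor a time is given in the sources used here. Whether the 3 libraries of a group were separate cultures is not stated either, and p-values then measure only the spread between these libraries, which may be technical. One cell line served as the model for every group.

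Oxidative phosphorylation passes electrons from NADH through complex I, and from succinate through complex II, to ubiquinone, complex III, cytochrome c and complex IV, which reduces oxygen. Complexes I, III and IV pump protons across the inner mitochondrial membrane, and complex V, the ATP synthase, uses the gradient to make ATP. Most subunits are encoded in the nucleus and a few in mitochondrial DNA. Macrophages activated by lipopolysaccharide are known to shift from respiration toward glycolysis.

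Total counts ran from 38506162 to 41679412 per library, and counting error was small beside the spread between libraries (common coefficient of variation 18.4%). Of 12 macrophage and monocyte markers, 11 averaged at least 1 FPKM (a level scaled to gene length and library size), and CD163 did not. All 5 epithelial markers, 6 of 8 stromal markers and 2 of 4 cartilage markers were measured and averaged below 1 FPKM each, and of 5 T cell markers only CD2 was measured, also below 1 FPKM, while PECAM1 and CD79B of the endothelial and B cell lists were not. Relative to the mean of the 9 libraries, counts leaned with GC content in a direction that separated the LPS_ABS group. Slopes were taken on each library's log2 deviation from that mean, so they compare libraries and are not absolute. Per 10 points of GC they were -0.17 to -0.14 in control libraries, -0.30 to -0.02 with LPS and 0.22 to 0.36 with LPS_ABS. Counts of calls with LPS_ABS and the fold changes named are therefore given without and with a correction for GC content, while CPM values are uncorrected throughout. Subunits took 1.69 to 1.79% of counts in control libraries, 1.38 to 1.65% with LPS and 1.44 to 1.65% with LPS_ABS, and LPS replicate 2 and LPS_ABS replicate 3 were the lowest of their groups.

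Subunit mRNAs were abundant in control cells, and levels within 1 complex spread over a wide range. On the FPKM scale, which is per gene length, the median control level was 108.1 in complex I, 96.6 in complex II, 142.7 in complex III, 319.8 in complex IV and 209.6 in complex V. Among single subunits, UQCRH, the hinge protein of complex III, had the highest level of all at 831 ± 10.4 FPKM (SD, n = 3). ATP5F1B, the catalytic beta subunit of the ATP synthase, followed at 782 ± 46.0 FPKM, and COX4I1, a nuclear subunit of complex IV, at 737 ± 50.8 FPKM. The difference between UQCRH and ATP5F1B was about as large as the SD of ATP5F1B, and that between ATP5F1B and COX4I1 was smaller than either SD.

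Complex I had the widest range, with a 118-fold ratio of its highest to its lowest level. Its highest control level was that of NDUFS5, an accessory subunit, at 547 ± 21.9 FPKM, with NDUFB9 at 528 ± 31.8 FPKM within the SD of it. Its lowest was that of NDUFC2 at 4.62 ± 0.193 FPKM. In RefSeq (GRCh38.p14), NDUFC2 lies within the read-through gene NDUFC2-KCTD14, and the level is uncertain because the treatment of shared reads in the counting is not stated. NDUFS1, the largest iron-sulphur subunit, stood at 9.16 ± 0.135 FPKM over a gene length of 11774 bp. The FPKM lengths are the authors' own, and a long annotated length lowers the level per length.

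The ratio was 2.46 in complex II, 20.8 in complex III, 7.09 in complex IV and 14.7 in complex V. Complex II ran from SDHD, a membrane anchor, at 57.2 ± 6.49 FPKM to SDHB, the iron-sulphur subunit, at 140.3 ± 9.49 FPKM. Complex III ran from UQCRFS1, the Rieske iron-sulphur protein, at 39.9 ± 1.18 FPKM up to UQCRH, complex IV from COX7B at 104.0 ± 10.5 FPKM up to COX4I1, and complex V from ATP5F1E, the epsilon subunit, at 53.2 FPKM up to ATP5F1B. NDUFA4 stood at 104 ± 8.85 FPKM, level with COX7B. ATP5MGL, an intronless copy of ATP5MG, was listed at 0 in 8 of 9 libraries and was not tested, which left 78 subunits. UQCRH shares sequence with its copy UQCRHL (53.2 FPKM on average), and SDHA has near-identical pseudogenes, so their counts are uncertain.

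**Figure D1:**
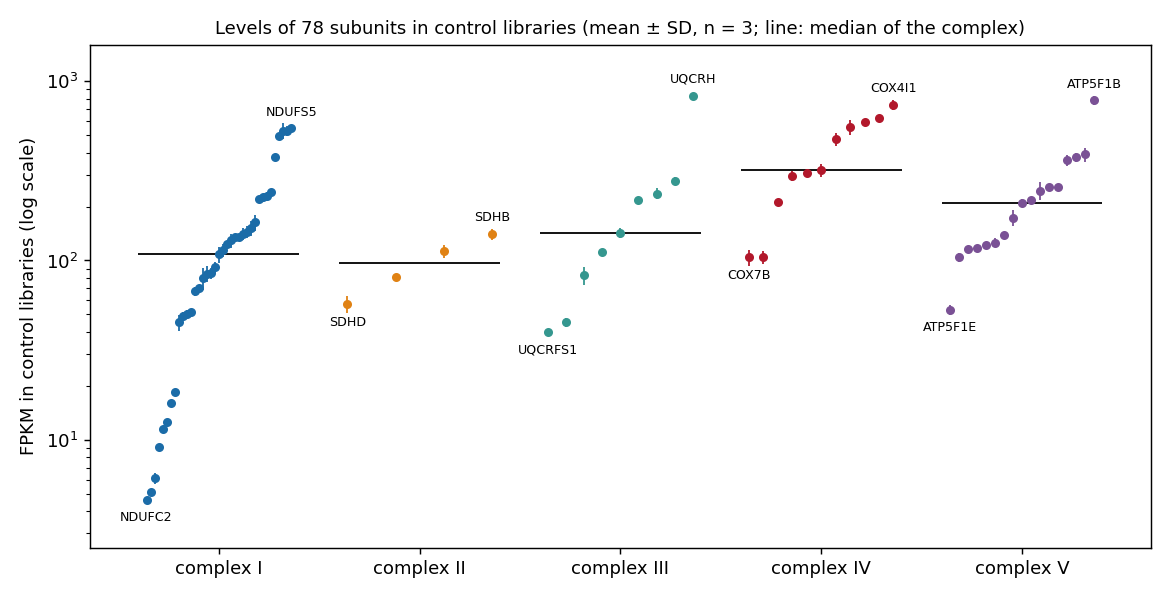
Control levels of the 78 tested subunits in FPKM on a log axis, by complex, as mean ± SD of 3 libraries, with a line at the median of each complex. Complex I reaches from NDUFC2 at 4.62 to NDUFS5 at 547, and the medians run from 96.6 in complex II to 319.8 in complex IV.

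With LPS a subset of the subunits fell, with members in every complex. Of 78 subunits tested, 15 were lower with LPS than in control and 0 were higher at an adjusted p under 0.05 in edgeR's quasi-likelihood test. Across all 12970 genes tested, 7.19% were lower and 7.71% higher. At an unadjusted p under 0.05, edgeR gave 26 lower and 2 higher subunits, where 15.2% of all genes were lower and 14.2% higher. DESeq2 called 17 subunits lower and 1 higher after adjustment, and its shares of all genes are not given here. The median log2 fold change was -0.19 over the subunits and -0.03 over all genes, and 62 of 78 subunits lay below 0. The groups did not overlap for 38 subunits that were lower and 6 that were higher with LPS, where 22.7% and 19.9% of all genes were so placed. In bulk RNA, a lower level per cell and fewer cells holding the RNA cannot be told apart.

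By complex, the lower subunits were 5 of 37 in complex I (NDUFS5, NDUFAB1, NDUFA6, NDUFB2 and NDUFS6), 1 of 4 in complex II (SDHA), 3 of 9 in complex III (UQCR10, UQCRH and UQCRQ), 2 of 11 in complex IV (COX7B and COX6C) and 4 of 17 in complex V (ATP5PF, ATP5MK, ATP5MC1 and ATP5MC3). The median log2 fold changes were -0.15, -0.26, -0.30, -0.18 and -0.26 in the same order. Differences between complexes were not tested, since subunits are not replicates of a treatment. The GC correction called the same 15 lower and 1 higher, where 9.65% of all genes were lower and 11.4% higher. The correction made within classes of gene length called these 15 among 22 lower subunits, and 1 higher, where the shares of all genes were 11.8% and 13.0%.

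**Figure D2:**
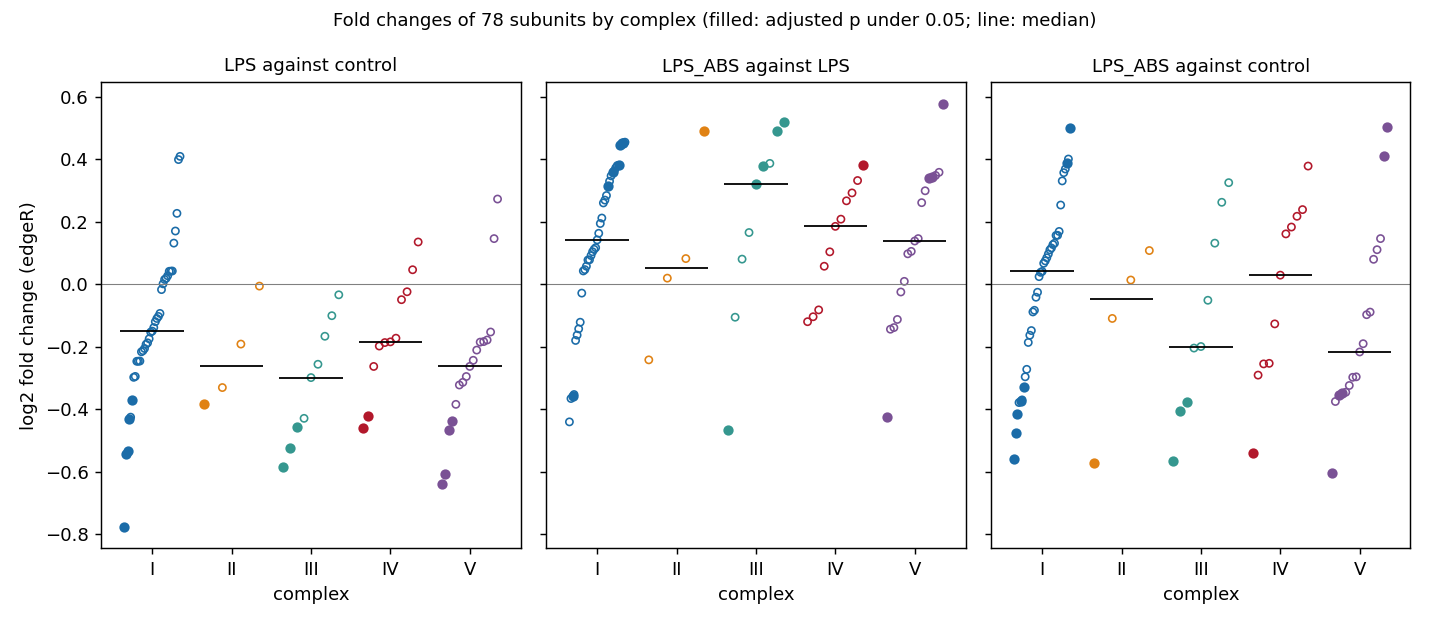
Log2 fold changes of the 78 tested subunits in the 3 comparisons without GC correction, by complex, with filled points at an adjusted p under 0.05 and a line at the median. With LPS against control all 15 filled points lie below 0, and with LPS_ABS against LPS 15 of 18 lie above 0.

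In complex I, NDUFS5 gave the largest fall. Its levels in CPM (counts scaled to library size) were 251, 252 and 275 in control, 178, 137 and 139.7 with LPS, and 184, 194 and 206 with LPS_ABS. Every control library was above every LPS_ABS library, and these above every LPS library. The log2 fold change with LPS was -0.78 (SE 0.13, adjusted p = 0.00194 by edgeR). That of LPS_ABS against LPS was 0.36 (adjusted p = 0.0418), and 0.33 (adjusted p = 0.0825) with the GC correction. NDUFAB1, which is also the mitochondrial acyl carrier protein, read 84.9, 77.1 and 93.0 CPM in control and 66.5, 52.1 and 57.4 CPM with LPS, without overlap (-0.53, SE 0.14, adjusted p = 0.0207 by edgeR). NDUFA6, a subunit that binds an acyl carrier protein, fell by 0.43 (adjusted p = 0.026), NDUFB2 of the membrane arm fell by 0.54 (adjusted p = 0.0327), and NDUFS6 fell by 0.37 on the log2 scale (adjusted p = 0.0399).

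The core of complex I gave no call without GC correction. Of its 7 nuclear core subunits, which hold the flavin and iron-sulphur centres, edgeR called 0 in either direction, and their median log2 fold change was 0.04. At an unadjusted p under 0.05 it gave 1 higher and 0 lower, and DESeq2 called 1 higher after adjustment. NDUFV1, the subunit that binds NADH, had a log2 fold change of 0.04 (adjusted p = 0.884), and NDUFS1 one of -0.19 (adjusted p = 0.323). Accessory subunits outside the NDUFB family had 4 of 19 lower (median -0.19), and the NDUFB family 1 of 11 (median -0.15).

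SDHA, the flavoprotein of complex II that oxidises succinate, read 331, 328 and 326 CPM in control and 231, 275 and 249.4 CPM with LPS. No LPS library reached the controls (-0.38, SE 0.12, adjusted p = 0.0433 by edgeR). SDHB showed no such gap, with a log2 fold change of -0.01 (adjusted p = 0.982).

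In complex III, among its accessory subunits 3 of 5 fell, with a median log2 fold change of -0.46, and 0 of its 4 core and catalytic subunits did, with a median of -0.13. Of these 4, edgeR gave 0 at an unadjusted p under 0.05 and DESeq2 called 0. With the GC correction by length class, edgeR called 1 of the 4 lower, UQCRC1 (-0.29, adjusted p = 0.0464), and 4 of 5 accessory subunits. UQCR10 read 187, 192 and 197 CPM in control, 140.1, 125 and 136 CPM with LPS and 171, 166 and 163 CPM with LPS_ABS. The 3 groups were separate, with LPS lowest (-0.52, SE 0.10, adjusted p = 0.00634 by edgeR for LPS against control). LPS_ABS against control was not called for UQCR10 (-0.20, adjusted p = 0.143, and -0.13, adjusted p = 0.452 with the GC correction). UQCRH read 548, 538 and 564 CPM in control and 427, 375 and 399.7 CPM with LPS (-0.46, SE 0.10, adjusted p = 0.0119). UQCRQ, the subunit beside cytochrome b, fell by 0.59 (adjusted p = 0.0224). For the core proteins UQCRC1 and UQCRC2 the log2 fold changes were -0.26 (adjusted p = 0.208) and -0.10 (adjusted p = 0.564).

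In complex IV, COX7B read 232, 226 and 278 CPM in control and 204, 154 and 176 CPM with LPS, without overlap (-0.46, SE 0.13, adjusted p = 0.0331 by edgeR). COX6C, another small accessory subunit, fell by 0.42 (adjusted p = 0.0429). COX4I1, the most abundant subunit of this complex, overlapped between the groups (-0.02, adjusted p = 0.934), as did NDUFA4 (-0.17, adjusted p = 0.456).

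In complex V the lower subunits belonged to the stalk, the ring and the membrane part. ATP5PF, coupling factor 6 of the peripheral stalk, read 149.7, 159 and 145 CPM in control, 112, 89.4 and 90.4 CPM with LPS and 122, 125 and 122 CPM with LPS_ABS. These 3 groups were also separate (-0.64, SE 0.12, adjusted p = 0.0045 by edgeR for LPS against control). The middle position of LPS_ABS is on uncorrected CPM: against LPS the log2 fold change was 0.34 (adjusted p = 0.0425), and 0.10 (adjusted p = 0.63) with the GC correction. The c ring, which turns as protons pass, is encoded by 3 genes, and ATP5MC1 fell by 0.47 (adjusted p = 0.0383) and ATP5MC3 by 0.44 (adjusted p = 0.0415), while ATP5MC2 had a log2 fold change of 0.27 (adjusted p = 0.208). ATP5MK, a small membrane subunit, fell by 0.61 (adjusted p = 0.0255). Without GC correction edgeR called none of the 5 subunits of the F1 head: ATP5F1A had a log2 fold change of -0.31 (adjusted p = 0.053) and ATP5F1B one of -0.15 (adjusted p = 0.401). In the F1 head edgeR gave 2 lower at an unadjusted p under 0.05, and DESeq2 called 1 lower. With the GC correction by length class, edgeR called ATP5F1A lower (-0.28, adjusted p = 0.0377), and 4 of 5 subunits of the membrane part.

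Few of these calls held with 1 library fewer. Leaving out control replicates 1, 2 and 3 in turn left 3, 5 and 3 lower subunits, leaving out LPS replicates 2 and 3 left 3 each, and leaving out LPS replicate 1 gave 16. The shares of all genes called in these fits are not given here, so the change in counts is not read as particular to the subunits. ATP5PF, NDUFS5 and UQCR10 were called in all 6 of these fits, with and without the GC correction. SDHA and ATP5MC3 were called in 0 of the 6 without it. By library, the median log2 level of the subunits against the control mean was -0.08, -0.29 and -0.19 in LPS replicates 1, 2 and 3, and -0.01, -0.04 and 0.06 in the controls.

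**Figure D3:**
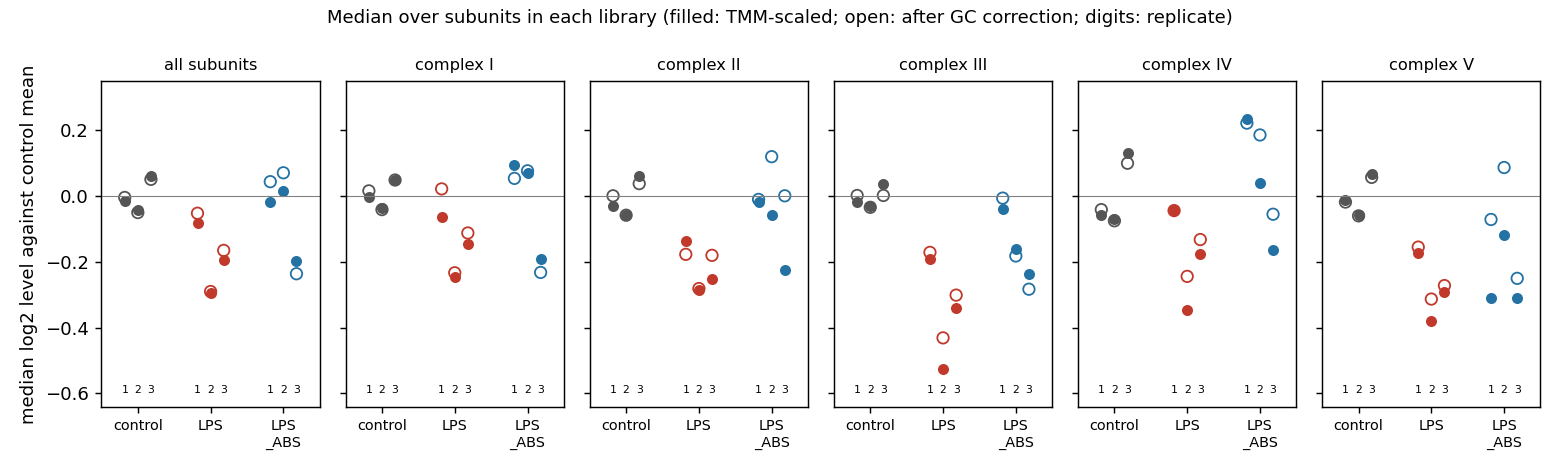
Median log2 level of the tested subunits against the control mean in each library, for all subunits and by complex, before (filled) and after (open) GC correction. For all subunits the LPS libraries sit between -0.29 and -0.08 before correction, and LPS_ABS replicate 3 at -0.20 is apart from LPS_ABS replicates 1 and 2.

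The promoters of the subunits called lower with LPS are shown. This group was set by the calls, and shared control of its genes was not tested. Nuclear respiratory chain genes are known targets of NRF1, of Ets family factors such as GABP, and of YY1. RefSeq windows (GRCh38.p14, 250 bases before to 50 after a start) matched 65 of 79 subunits with 77 starts, and 12 of the 15 that fell. NDUFS5, COX6C and ATP5MC3 were not matched. Searched on both strands were the NRF1 letters TGCGCA, the Ets letters CCGGAAG and the YY1 letters ATGGCGG. The 250 bases before the most upstream start are printed, 5′ to 3′ on the gene's strand, for the matched members that fell and hold any of the 3 there, with capitals at the matches. SDHA lies at chr5:218070-218319 (+), NDUFA6 at chr22:42090773-42091022 (-), NDUFS6 at chr5:1801157-1801406 (+), UQCRH at chr1:46303448-46303697 (+), UQCRQ at chr5:132866392-132866641 (+), ATP5MK at chr10:103396476-103396725 (-) and ATP5PF at chr21:25735055-25735304 (-).
SDHA: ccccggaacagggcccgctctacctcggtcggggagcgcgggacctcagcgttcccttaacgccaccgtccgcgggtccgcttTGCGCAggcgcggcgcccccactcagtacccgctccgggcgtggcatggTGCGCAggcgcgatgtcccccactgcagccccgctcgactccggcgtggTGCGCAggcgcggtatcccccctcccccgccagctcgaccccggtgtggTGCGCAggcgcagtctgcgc
NDUFA6: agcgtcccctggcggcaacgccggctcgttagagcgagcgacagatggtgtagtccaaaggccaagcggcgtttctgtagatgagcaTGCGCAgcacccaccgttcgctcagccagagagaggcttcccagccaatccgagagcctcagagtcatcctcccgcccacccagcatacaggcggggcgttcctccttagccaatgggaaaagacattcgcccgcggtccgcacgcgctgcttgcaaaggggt
NDUFS6: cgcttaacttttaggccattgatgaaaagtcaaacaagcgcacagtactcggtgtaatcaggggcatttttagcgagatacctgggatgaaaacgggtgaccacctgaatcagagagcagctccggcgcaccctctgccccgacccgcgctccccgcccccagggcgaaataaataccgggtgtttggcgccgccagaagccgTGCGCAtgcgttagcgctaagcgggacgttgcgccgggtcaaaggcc
UQCRH: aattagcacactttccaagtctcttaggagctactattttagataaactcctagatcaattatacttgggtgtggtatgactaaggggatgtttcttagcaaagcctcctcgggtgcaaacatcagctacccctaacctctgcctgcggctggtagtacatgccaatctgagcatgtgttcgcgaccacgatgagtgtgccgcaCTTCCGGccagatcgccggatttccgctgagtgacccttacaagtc
UQCRQ: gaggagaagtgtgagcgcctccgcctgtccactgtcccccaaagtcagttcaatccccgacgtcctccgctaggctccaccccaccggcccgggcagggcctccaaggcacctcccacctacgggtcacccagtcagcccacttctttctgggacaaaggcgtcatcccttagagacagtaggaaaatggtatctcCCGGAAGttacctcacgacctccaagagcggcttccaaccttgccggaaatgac
ATP5MK: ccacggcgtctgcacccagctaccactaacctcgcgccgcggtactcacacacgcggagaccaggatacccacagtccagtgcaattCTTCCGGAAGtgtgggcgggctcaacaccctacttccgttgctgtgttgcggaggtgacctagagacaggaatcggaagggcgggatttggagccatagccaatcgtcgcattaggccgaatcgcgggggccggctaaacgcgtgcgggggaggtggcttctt
ATP5PF: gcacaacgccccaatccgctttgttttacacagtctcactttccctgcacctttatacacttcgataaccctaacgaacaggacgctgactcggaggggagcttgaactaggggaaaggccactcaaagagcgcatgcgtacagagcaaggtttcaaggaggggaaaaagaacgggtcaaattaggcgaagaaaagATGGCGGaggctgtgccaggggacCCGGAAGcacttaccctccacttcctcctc

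The NRF1 letters stand 4 times in the SDHA stretch and 1 time each in those of NDUFA6 and NDUFS6. The Ets letters stand in the stretches of UQCRH, UQCRQ, ATP5MK and ATP5PF, in ATP5MK on both strands with the matches overlapping, and the YY1 letters in that of ATP5PF. Over whole 300-base windows, the Ets letters occurred in 28.57% of 77 subunit windows, 16.56% of windows of tested genes and 10.26% of all 35116 windows. The YY1 letters occurred in 29.87%, 8.99% and 5.55%, and the NRF1 letters in 27.27%, 11.73% and 8.24%. Among the 13 windows of subunits that fell with LPS, 5 held the Ets letters, 5 the YY1 letters and 3 the NRF1 letters. These are matches of letters, not measured binding.

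With LPS_ABS, some subunits stood above their LPS level, and which ones depended on the correction for GC content. Without the correction, 15 of 78 subunits were higher and 3 lower than with LPS alone by edgeR, where 16.8% of all genes were higher and 18.8% lower. With it, edgeR called 16 higher and 0 lower (3 lower at an unadjusted p under 0.05), where 5.05% of all genes were higher and 4.24% lower. DESeq2, without the correction, called 19 higher and 4 lower, and its shares of all genes are not given here. Only 3 subunits were in both sets, 20.0% of the first and 18.8% of the second: NDUFAB1, NDUFV3 and UQCR10. Those 3 were also among the 22 higher when the correction was made within length classes, which gave 1 lower, with 6.66% of all genes higher and 5.81% lower. The median log2 fold change over the subunits was 0.14 without and 0.13 with the correction, against 0.02 and 0.00 over all genes.

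NDUFAB1 read 78.2, 88.3 and 74.2 CPM with LPS_ABS, above its 3 LPS libraries (log2 fold change 0.45, adjusted p = 0.0236 by edgeR; 0.48, adjusted p = 0.0396 with GC correction). NDUFV3, an accessory subunit of the NADH-binding module, read 62.0, 60.4 and 61.0 CPM with LPS and 75.6, 79.6 and 83.6 CPM with LPS_ABS (0.38, adjusted p = 0.0211 by edgeR; 0.37, adjusted p = 0.0358 corrected). UQCR10 rose by 0.32 (adjusted p = 0.0329; 0.36, adjusted p = 0.0491 corrected). On uncorrected CPM the LPS_ABS and LPS groups did not overlap for any of the 3. The same held for 24 of 78 subunits that were higher with LPS_ABS, where 21.9% of all genes were so placed. Without GC correction, NDUFAB1 and UQCR10 were each called in 3 of the 6 fits with 1 library fewer, and NDUFV3 in 4 of 6. With the correction the numbers were 2 for NDUFAB1, 1 for UQCR10 and 2 for NDUFV3. The subunits called higher in all 6 were ATP5MC1, CYC1, NDUFS6, SDHA and UQCRC1 without the correction, and ATP5MC3 and COX7B with it.

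**Figure D4:**
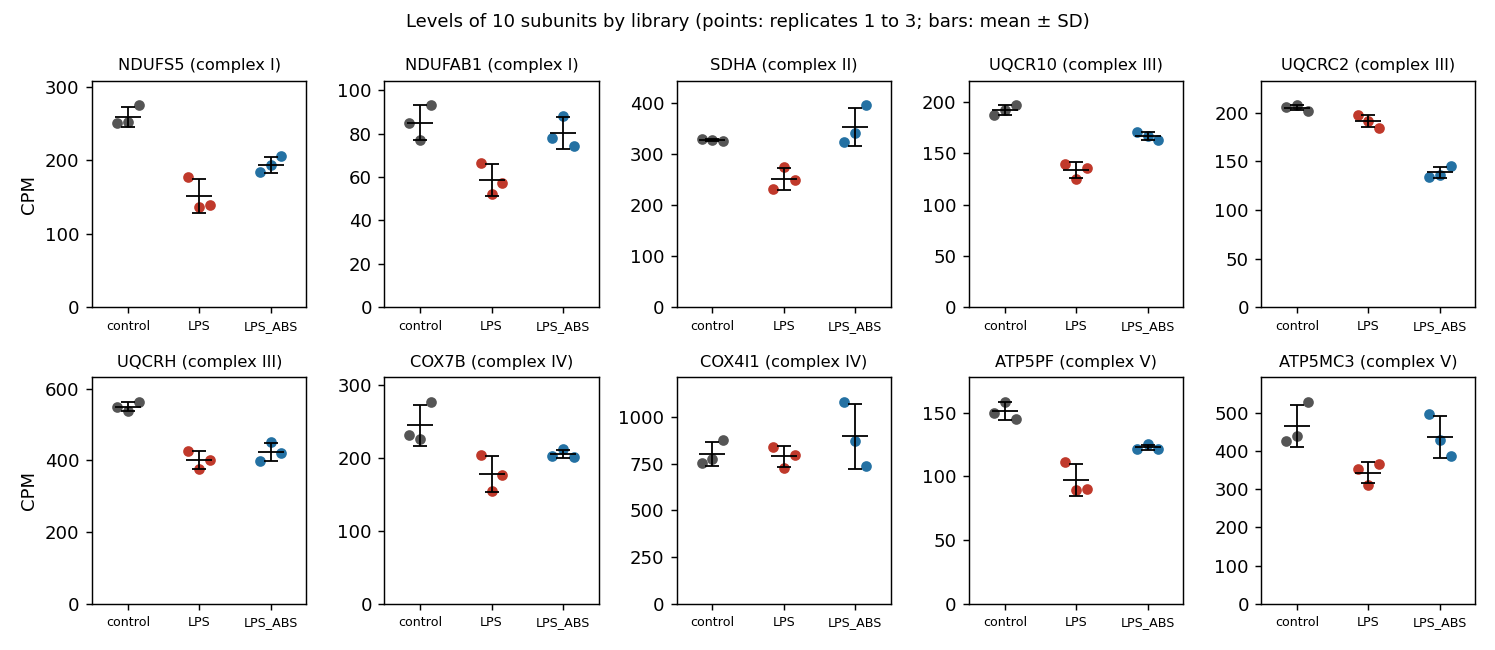
CPM of 10 subunits in each of the 9 libraries with mean ± SD by group, chosen to show subunits that fell with LPS (NDUFS5, NDUFAB1, SDHA, UQCR10, UQCRH, COX7B, ATP5PF and ATP5MC3), UQCRC2, lowest with LPS_ABS, and COX4I1, which overlapped throughout. UQCR10 and ATP5PF separate into 3 levels on these CPM, with LPS_ABS between LPS and control. For UQCR10, LPS_ABS was not called against control (-0.20, adjusted p = 0.143 by edgeR). With GC correction ATP5PF with LPS_ABS differed from LPS by 0.10 on the log2 scale (adjusted p = 0.63).

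The calls of the 2 fits differed in GC content. Subunits called higher without the correction had a median transcript GC content of 53.9%, and those called with it 42.5%. Across the 78 subunits, Spearman's rho between GC content and the log2 fold change was 0.595 without the correction, -0.745 with it and -0.581 with the correction by length class; subunits share libraries and are not independent points. The correction turned the relation around and did not remove it. Under 45% GC, 0 of 24 subunits were higher and 2 lower without the correction, and 12 were higher with it. Above 55% GC, 5 of 18 were higher without it and 0 with it. The shares of all genes in the same GC classes are not given here, so these counts are not read as a trait of the subunits. The subunits are short, with a median length of 1173 bp against 3859 bp over all genes, and whether this bears on the correction was not tested.

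By complex, uncorrected calls were 6 higher and 1 lower in complex I, 1 and 0 in complex II, 4 and 1 in complex III, 1 and 0 in complex IV and 3 and 1 in complex V. Corrected calls were 6, 1, 2, 4 and 3 higher in the same order, and 0 lower. Of all genes, 16.8% were higher and 18.8% lower without the correction, and 5.05% higher and 4.24% lower with it. SDHA rose by 0.49 without the correction (adjusted p = 0.00945 by edgeR), from the LPS values above to 324, 341 and 396 CPM, and had a log2 fold change of 0.19 with it (adjusted p = 0.233). CYC1, cytochrome c1, read 745, 527 and 527 CPM with LPS_ABS against 414 to 435 CPM with LPS, with a log2 fold change of 0.49 (adjusted p = 0.0174) that became 0.03 (adjusted p = 0.926). ATP5MC3 and COX7B went the other way, from 0.35 and 0.21 (adjusted p = 0.0535 and 0.226) to 0.87 and 0.71 (adjusted p = 0.00279 and 0.00885).

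**Figure D5:**
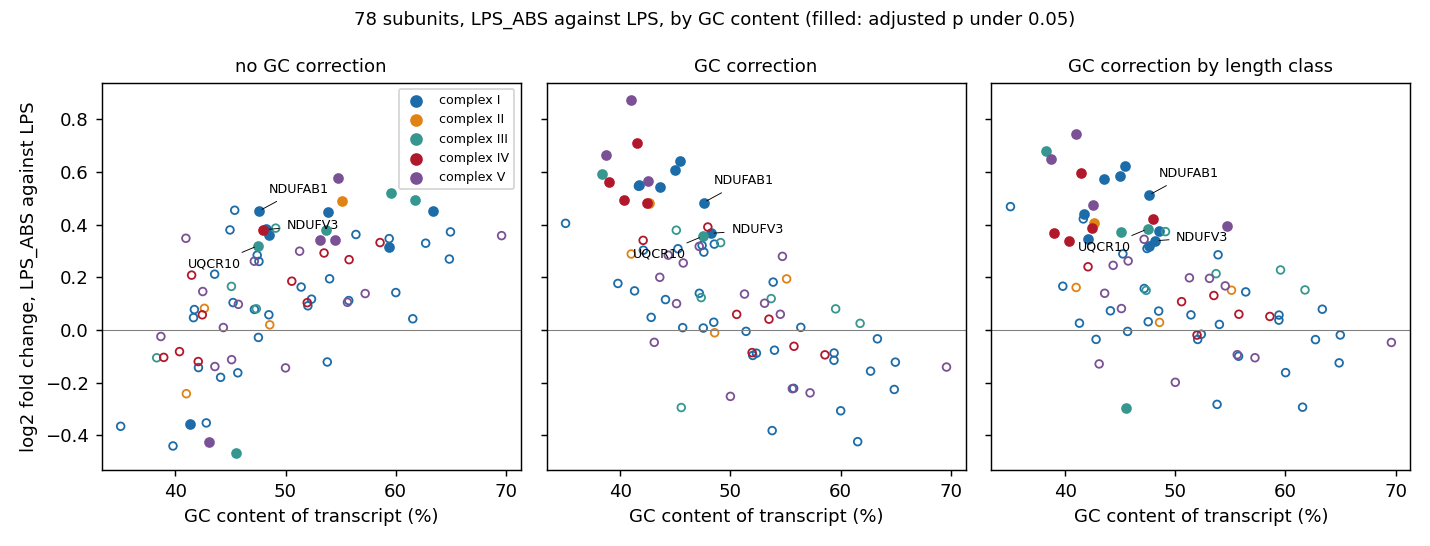
Log2 fold change of LPS_ABS against LPS for the 78 subunits against transcript GC content, without correction, with GC correction and with GC correction by length class, with filled points at an adjusted p under 0.05. The slope is upward on the left and downward in the other panels (Spearman's rho 0.595, -0.745 and -0.581).

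UQCRC2, a core protein of complex III, was lowest with LPS_ABS. It read 206, 208 and 202 CPM in control, 198, 192 and 184 CPM with LPS and 134, 136 and 145 CPM with LPS_ABS, so that every LPS_ABS library was below the others. Against LPS the log2 fold change was -0.47 (SE 0.10, adjusted p = 0.00764 by edgeR), and -0.29 (adjusted p = 0.0632) with the GC correction. ATP5PB of the peripheral stalk and NDUFV2 of the complex I core were the other lower subunits without correction, at -0.43 (adjusted p = 0.035) and -0.36 (adjusted p = 0.0435). With it, ATP5PB stood at -0.05 (adjusted p = 0.858) and NDUFV2 at 0.15 (adjusted p = 0.371), and NDUFV2 was called higher than control (0.36, adjusted p = 0.04). The correction turned the sign of the fold change against LPS in 36 of 78 subunits, of which 7 were called on at least 1 side, and against control in 37, of which 8 were.

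Single libraries weighed on these counts too. Without LPS_ABS replicate 3, edgeR called 26 subunits higher than with LPS and 1 lower. Without LPS replicates 2 or 3 it called 5 higher in each case, with 4 and 1 lower. Without LPS replicate 1, 14 were higher and 1 lower, without LPS_ABS replicate 1 there were 12 and 2, and without LPS_ABS replicate 2 there were 8 and 4. Shares of all genes called in the same fits are not given here, so these changes are not read as particular to the subunits. Scaling to total counts gave 5 higher and 5 lower in place of 15 and 3, and moved the median of all genes by -0.10 on the log2 scale.

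Against control, subunits were called in both directions with LPS_ABS, and 4 were lower in all 3 fits. Without GC correction 4 subunits were higher and 13 lower, where 14.8% of all genes were higher and 19.0% lower by edgeR. With the correction 6 were higher and 7 lower, where the shares of all genes were 7.96% and 5.09%. UQCRC2, NDUFS5, NDUFA6 and ATP5PO were lower in both fits and in that by length class, and 0 subunits were higher in all 3. The fit by length class gave 7 higher and 8 lower, with 9.63% and 6.39% of all genes. UQCRC2 fell by 0.57 (SE 0.10, adjusted p = 0.00244) without the correction and by 0.36 (adjusted p = 0.0256) with it. NDUFS5 fell by 0.42 and 0.41 (adjusted p = 0.0243 and 0.0305), and NDUFA6 by 0.37 and 0.36 (adjusted p = 0.0261 and 0.0465). ATP5PO, the oligomycin sensitivity subunit of the stalk, fell by 0.35 and 0.43 (adjusted p = 0.0465 and 0.0432). LPS and LPS_ABS were set against the same control libraries, so these falls are not independent of those with LPS.

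Among the subunits higher than control without correction, ATP5F1D had a log2 fold change of 0.50 (adjusted p = 0.0129 by edgeR), ATP5MC2 one of 0.41 (adjusted p = 0.0365) and NDUFV1 one of 0.39 (adjusted p = 0.049). With the correction their adjusted p-values were 0.831, 0.807 and 0.978. SDHD, ATP5PB and COX6C, at 41.0%, 43.1% and 42.1% GC, fell by 0.57, 0.60 and 0.54 without the correction and had adjusted p-values of 0.991, 0.452 and 0.86 with it. NDUFA9 was higher with the correction (0.63, adjusted p = 0.00792) and not without it (0.25, adjusted p = 0.165). Of the 4 lower in the 3 fits, UQCRC2 was called without correction in all 6 fits with 1 library fewer, NDUFA6 in 3, and NDUFS5 and ATP5PO in 1 each. With the correction UQCRC2 and NDUFS5 were called in 2 each and NDUFA6 and ATP5PO in 1 each, and 0 subunits were lower in all 6. Leaving out control replicates 1, 2 and 3 left 4, 5 and 4 lower subunits and 1, 0 and 2 higher. Leaving out LPS_ABS replicates 1, 2 and 3 left 8, 15 and 9 lower and 2, 1 and 12 higher. Here too the shares of all genes called in the same fits are not given. Scaling to total counts gave 2 higher and 26 lower, and moved the median of all genes by -0.13.

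Of 7 isoforms and proteins associated with the chain that were tested, 2 rose and 1 fell with LPS. NDUFA4L2, a paralogue of NDUFA4, read 4.65, 3.22 and 3.03 CPM in control, 18.1, 22.2 and 27.9 CPM with LPS and 17.6, 16.3 and 7.36 CPM with LPS_ABS. Its LPS libraries were all above control (log2 fold change 2.65, SE 0.31, adjusted p = 0.00031 by edgeR), and the call held in all 6 fits with 1 library fewer. Its log2 fold change of LPS_ABS against LPS was -0.73 (adjusted p = 0.0671), and -1.17 (adjusted p = 0.021) with the GC correction. CYCS, the soluble electron carrier cytochrome c, read 239.9, 227 and 206 CPM in control and 157, 124 and 138 CPM with LPS (-0.68, adjusted p = 0.00724 by edgeR). COX7A2L, which takes part in joining complexes III and IV, rose by 0.68 (adjusted p = 0.0314), a call that held in 1 of 6 fits with 1 library fewer. ATP5IF1, the inhibitor of the ATP synthase, had a log2 fold change of 0.28 (adjusted p = 0.166), and C15orf48, a further NDUFA4 paralogue, had too few counts to test.

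Among 48 assembly factors tested, 1 rose and 3 fell with LPS, 8.3% in all, which is below the share of all genes (7.71% higher and 7.19% lower). COX19, a copper-related factor for complex IV, rose by 0.82 (adjusted p = 0.00147 by edgeR), and NDUFAF8, a complex I assembly factor, read 34.1, 30.0 and 32.8 CPM in control and 18.9, 15.6 and 17.4 CPM with LPS (-0.90, adjusted p = 0.00123). COA7, a complex IV factor, fell by 0.66 (adjusted p = 0.0442) and was 1.02 lower with LPS_ABS than in control (adjusted p = 0.00336; 0.85 lower, adjusted p = 0.00834 with GC correction). Against LPS, 5 assembly factors were higher and 2 lower with LPS_ABS without correction, where 16.8% and 18.8% of all genes were, and 7 and 1 with it, where 5.05% and 4.24% were.

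Of 14 regulators of mitochondrial gene expression tested, 0 rose and 3 fell with LPS by edgeR, where 7.71% of all genes were higher and 7.19% lower. TFB2M, a mitochondrial transcription factor, fell by 0.68 (adjusted p = 0.0207) and TWNK, the mitochondrial DNA helicase, by 0.69 (adjusted p = 0.0242). PPRC1, a PGC-1 related coactivator, fell by 0.86 (adjusted p = 0.0446). Without GC correction, COX19, NDUFAF8 and CYCS were called with LPS in all 6 fits with 1 library fewer, TFB2M in 2, PPRC1 in 1, and COA7, TWNK and PDHA1 in 0. TFAM, which packages mitochondrial DNA, was not called with LPS (-0.26, adjusted p = 0.222). With LPS_ABS against LPS, 3 of the 14 regulators were higher and 4 lower without GC correction, where 16.8% and 18.8% of all genes were. With the correction 0 were higher and 0 lower, where 5.05% and 4.24% of all genes were. In the tricarboxylic acid cycle list of 19 genes, without GC correction 0 rose and PDHA1 fell with LPS (-0.38, adjusted p = 0.0478 by edgeR). That was 5.3% of the list, where 7.19% of all genes were lower. With the GC correction 3 were lower, where 9.65% of all genes were, and by length class 5, where 11.8% were. At an unadjusted p under 0.05 without correction, edgeR gave 7 lower, where 15.2% of all genes were. DESeq2 called 3 lower after adjustment. With LPS against control, in both lists edgeR gave 0 higher at an unadjusted p under 0.05 and DESeq2 called 0 higher. With LPS_ABS against LPS, 7 of these 19 were higher and 1 lower without GC correction, and 4 and 0 with it, beside the same shares of all genes as for the assembly factors. MDH2, malate dehydrogenase, went from 430 to 463 CPM with LPS to 617 to 691 CPM with LPS_ABS (0.52, adjusted p = 0.00565; 0.32, adjusted p = 0.0685 corrected). The count table held 0 of the 13 mitochondrially encoded subunits, which were not analysed here.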

How the data were processed

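The labels' protocols name a stranded mRNA kit and a further RNA kit for the libraries. The submitters' processing notes name fastp, HISAT2, HTSeq, R 3.2.0 and DESeq2. The authors deposited counts per gene and FPKM; the genome build and the strand setting of the counting are not given in the sources used here, and reads of overlapping antisense genes cannot be told apart. FPKM were used as deposited for levels between genes.

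The test of counts was that of edgeR 4.0.16 (R 4.3.3): filterByExpr (12970 genes), TMM, quasi-likelihood F tests on 3 group means over 9 libraries, Benjamini-Hochberg over all genes tested, called at an adjusted p under 0.05. CPM are counts scaled to TMM library sizes. The GC correction was an offset from a lowess (span 0.3) per library on GC content of GENCODE transcripts, which 99.24% of genes and all 79 subunits had. It was fitted to the log count of each gene as a deviation from its mean over the libraries. In the corrected fits the offset was added to the log total counts of each library, and the TMM factors were not used. Fits without and with the correction therefore also differ in library scaling. The correction by length class was added after seeing the data. DESeq2 1.42.0, other scalings, no filter, only the compared groups, a length correction, a replicate block and leaving out each library were alternatives. Only the uncorrected edgeR fit of LPS against control was tested on simulated data, which held no GC trend. No 2 libraries of a group agreed within sampling noise (lowest chi-square per degree of freedom 7.17).

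The subunits and lists were chosen with earlier results of these data known. Picked for naming were the highest and lowest subunit of each complex, the up to 2 called per complex and comparison with the smallest adjusted p, landmark subunits, and up to 2 called genes per other list and comparison. Not all genes picked by these rules are given with their values above. NDUFA6, NDUFB2, NDUFS6, NDUFA9, NDUFV2, UQCRQ, COX7A2L, ATP5MC2, ATP5MC3 and ATP5PO were named after their values were seen. The values of 1 subunit are not reported here.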

Additional observations from a re-analysis of the deposited data

How the results depend on the processing

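Counts are of 78 subunits called by edgeR, except under DESeq2, which was run on 79. With no filter, edgeR also kept ATP5MGL. Apart from the GC correction and that by length class, the shares of all genes called in the alternative fits are not given here. Changes in these counts are therefore not read as particular to the subunits. With LPS against control, 0 higher became 1 under DESeq2, the GC correction, the correction by length class, the GC correction with replicate block, the length correction and no filter, and 3 with only the compared groups; 15 lower became 8 with no filter. With LPS_ABS against LPS, 15 higher became 9 with no filter, 4 with only the compared groups and 5 with total counts; 3 lower became 0 with the GC correction, alone or with the replicate block, 1 by length class or with only the compared groups, and 5 with total counts. With LPS_ABS against control, 4 higher became 7 under DESeq2, by length class and with the length correction, and 2 with only the compared groups or total counts; 13 lower became 7 with the GC correction, alone or with the replicate block, 8 by length class and 26 with total counts. Leaving out 1 library gave 0 higher and 3 to 16 lower with LPS, 5 to 26 higher and 1 to 4 lower for LPS_ABS against LPS, and 0 to 12 higher and 4 to 15 lower for LPS_ABS against control; with the GC correction the ranges were 0 and 5 to 15 (6 without control replicate 1 and 7 without control replicate 2), 2 to 20 and 0 to 1, and 1 to 14 and 0 to 7. Same-numbered libraries did not all deviate together (correlations from -0.04 to 0.20), nor did every library correlate best with its own number, so the numbers were not taken as a pairing; the replicate block alone gave 11 lower with LPS, 10 higher and 3 lower for LPS_ABS against LPS, and 4 higher and 10 lower against control.

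For the genes picked for naming, signs turned with a call on at least 1 side under the GC correction, by length class, and with the replicate block, in that order: UQCRB to 0.59, 0.68 and 0.58 against LPS and 0.30, 0.38 and 0.30 against control, NDUFS1 to 0.16, 0.19 and 0.16 against control and, by length class, 0.35 against LPS (0.30 and not called with the GC correction), NDUFV2 to 0.15, 0.026 and 0.145 against LPS and, with the GC correction, 0.36 against control, ATP5MC3 to 0.47, 0.364 and 0.48 against control, NDUFA4 to 0.49, 0.34 and 0.49 against LPS, CYCS to 0.48, 0.54 and 0.47 against LPS, HIGD1A to 0.27, 0.26 and 0.26 against LPS and 0.080, 0.070 and 0.070 against control, and TFAM to 0.27, 0.26 and 0.26 against LPS and 0.023, 0.014 and 0.018 against control. Each of these fold changes was negative without the correction, and not all of the uncorrected values are given here. Those of UQCRB were -0.11 against LPS and -0.40 against control. NDUFV1 against control reached -0.00151 with the GC correction and replicate block. The cause was not tested. Counting NDUFA4 with complex I, or using TPM, moved no count or level past its spread.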
